A study of Homo sapiens with 6 samples.

Results

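Myosin II and the enzymes that set the phosphorylation of its light chain were examined through 10 genes: the light chain kinases MYLK, MYLK2 and MYLK3, the regulatory light chain MYL9, the heavy chains MYH9 and MYH10, the kinases ROCK1 and ROCK2, and the myosin phosphatase subunits PPP1R12A and PPP1R12B. The genes were chosen by symbol, and all 10 were found among the 21293 genes of the normalized count table. RNA-seq data came from the latency competent cancer (LCC) population H2087-LCC, labelled a dormant metastatic derivative and selected in vivo from a human lung adenocarcinoma cell line. The 3 groups held 2 libraries each: cells given the TGFβ receptor inhibitor SB505124 (SB) for 3 days, cells given TGFβ for 3 days, and cells given TGFβ for 7 days. SB blocks the signaling that cells in culture start by themselves, so the SB group is a baseline without TGFβ signaling rather than an untreated group. No SB library was taken at 7 days, and the effect of TGFβ and of the longer culture cannot be told apart in a comparison of 7 days with SB. The 2 libraries of a group are described by the study as technical replicates, so the errors and p-values below measure the spread between libraries and may not cover the spread between cultures.

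Non-muscle myosin II is the motor that pulls on actin filaments in stress fibers and in the cell cortex. It is built from a pair of heavy chains, each of which carries an essential and a regulatory light chain. The motor is switched on when the regulatory light chain is phosphorylated, by the calcium and calmodulin-dependent myosin light chain kinases or by the ROCK kinases, and it is switched off by myosin phosphatase, whose targeting subunit brings the catalytic subunit to myosin. ROCK also phosphorylates that targeting subunit and so restrains the phosphatase. The study concerns the actin cytoskeleton of cells under short and long exposure to TGFβ, and the comparisons here address which parts of this machinery differed in RNA level.

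The values are normalized counts, that is, read counts divided by the authors by a factor for library size and given as whole numbers. They summed to between 34306283 and 36340734 per library. The low values put a single read pair at 0.896 to 1.098 normalized counts, depending on the library, or about 32000000 to 40000000 read pairs assigned to genes per library. A gene was tested when its mean over the 6 libraries was at least 10, which 14395 genes and 9 of the 10 myosin II genes reached. Fold changes are differences of log2(normalized count + 1), with the standard error of the limma fit, and a gene was called when its adjusted p over all 14395 genes was under 0.05. With 2 libraries against 2, an exact permutation test of a single gene cannot give a p below 0.333, so no such test was made.

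The main difference among the kinases was in MYLK2, which encodes the light chain kinase best known from skeletal muscle. MYLK2 had 44 and 53 normalized counts in the SB libraries, 454 and 486 after 3 days of TGFβ and 2233 and 2133 after 7 days. No libraries of any 2 groups overlapped, and the 2 libraries of a group lay close together. MYLK2 was 9.55-fold higher at 3 days than in SB (log2 fold change 3.26 ± 0.14, SE, adjusted p = 1.26e-08). At 7 days it was 44.3-fold higher than in SB (5.47 ± 0.14, adjusted p = 8.52e-11) and 4.64-fold higher than at 3 days (2.21 ± 0.14, adjusted p = 2.39e-06). These are RNA levels and do not give the amount of kinase. By the study's immunoblot, MYLK2 protein rose little, if at all, between 3 and 7 days of TGFβ. The gene lies on chromosome 20, at 30407111-30422492 on the plus strand of GRCh37, and none of its exon bases overlap another annotated gene. None of its 50-base windows occur in another gene's transcripts, MYLK, MYLK3 and MYLK4 included.

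MYLK, the widely expressed light chain kinase of smooth muscle and non-muscle cells, went the other way. Its normalized counts were 6337 and 5661 in SB, 3941 and 4209 at 3 days and 4082 and 4173 at 7 days. Both TGFβ groups lay below both SB libraries, while the 3-day and 7-day libraries overlapped. MYLK was 1.47-fold lower at 3 days than in SB (log2 fold change -0.56 ± 0.09, adjusted p = 0.000551) and 1.45-fold lower at 7 days (-0.54 ± 0.09, adjusted p = 0.000306). Between 7 and 3 days the difference was 0.02, with a 95% interval from -0.17 to 0.21. The MYLK locus (chromosome 3, 123328896-123603179, minus strand, GRCh37) gives rise to long and short kinases and to telokin, a kinase-free product, and the deposited value pools them. Antisense genes, MYLK-AS1 and MYLK-AS2 among them, overlap 3.09% of its exon bases, and reads from opposite strands were not told apart by the library kit. MYLK3, the cardiac light chain kinase, was close to the limit of detection, with 3 and 3, 5 and 4, and 6 and 10 normalized counts in the SB, 3-day and 7-day libraries. It fell under the minimum mean, and no fold change is given for it.

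MYLK4, a less studied member of the same kinase family, was called at 7 days. It had 23 and 30 normalized counts in SB, 30 and 20 at 3 days and 66 and 78 at 7 days. The SB and 3-day libraries overlapped, and both 7-day libraries were higher than these 4. The log2 fold change at 7 days was 1.42 ± 0.30 against SB (adjusted p = 0.00177) and 1.51 ± 0.30 against 3 days (adjusted p = 0.003). These are low counts, and per kilobase of exon the level at 7 days was 9.86 and 11.7 normalized counts for MYLK4 against 750.3 and 716.7 for MYLK2.

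**Figure D1:**
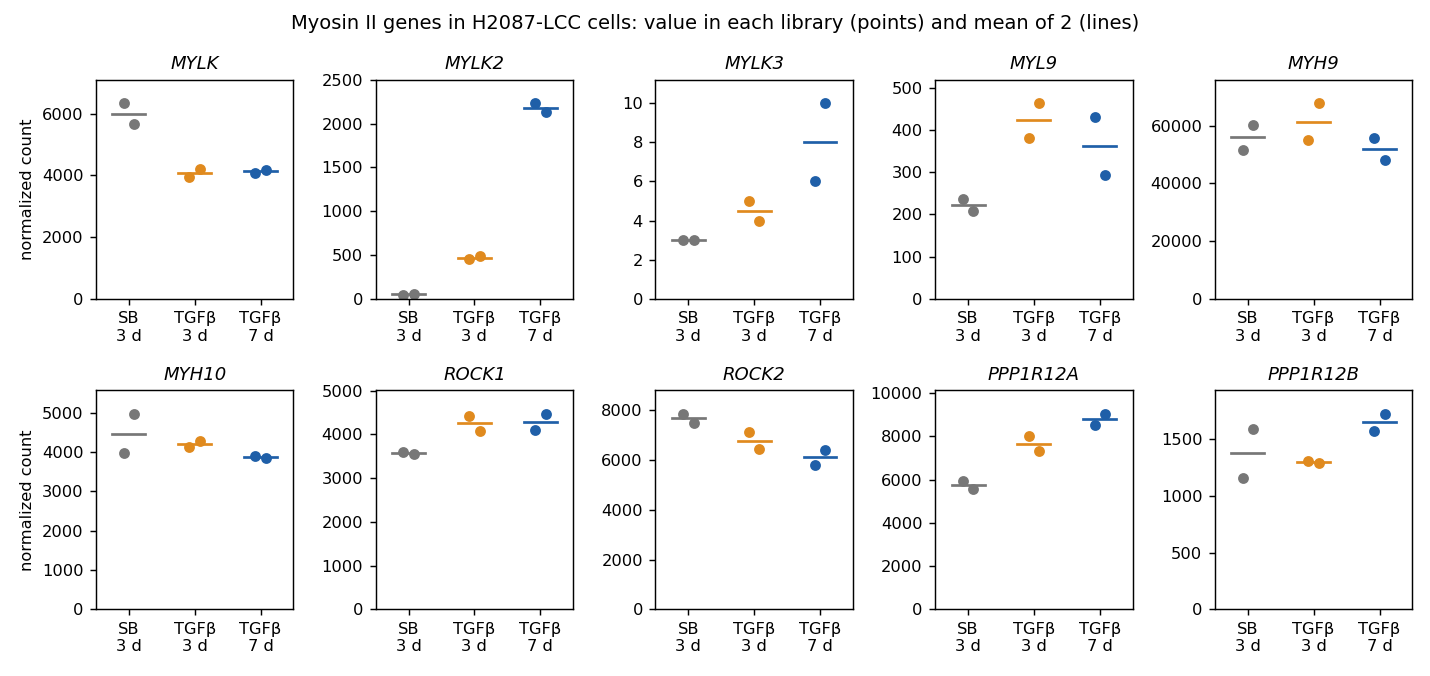
Normalized counts of the 10 myosin II genes, with a panel for each gene, each y axis starting at 0 and scaled to its gene, points for single libraries and lines for the mean of the 2 libraries of a group (SB 3 days, TGFβ 3 days, TGFβ 7 days). MYLK2 climbs from 44 and 53 in SB to 2233 and 2133 at 7 days, whereas MYLK is lower in all 4 TGFβ libraries.

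Because long transcripts collect more reads, levels of different kinases were compared only per kilobase of gene length. Over the union of all annotated exons, MYLK stood at 200.9 and 179.5 normalized counts per kb in SB against 14.8 and 17.8 for MYLK2. At 3 days MYLK stood at 125.0 and 133.5 per kb and MYLK2 at 152.6 and 163.3, and at 7 days MYLK stood at 129.4 and 132.3 and MYLK2 at 750.3 and 716.7. MYLK2 thus took 6.74% and 8.81% of the per-kb sum of the 4 MYLK family kinases in SB, 54.0% and 54.4% at 3 days and 84.3% and 83.2% at 7 days. The union of MYLK exons, drawn from 57 annotated transcripts, is 31537 bases, far longer than its longest transcript of 10113 bases, and the share depends on that choice. With the longest transcript, the share of MYLK2 was 2.31% and 3.07% in SB, 28.0% and 28.1% at 3 days and 64.5% and 62.8% at 7 days. Under both lengths MYLK was the higher per kb in SB and MYLK2 at 7 days, but their order at 3 days turned with the length. The summed level of the family per kb over exon unions was 219.4 and 202.1 in SB, 282.5 and 300.1 at 3 days and 890.2 and 861.6 at 7 days. By the longest transcript the sums were 645.9 and 583.3 in SB, 549.1 and 584.6 at 3 days and 1171 and 1149 at 7 days, so the sum at 7 days was above SB by both lengths and the difference at 3 days depended on the length.

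**Figure D2:**
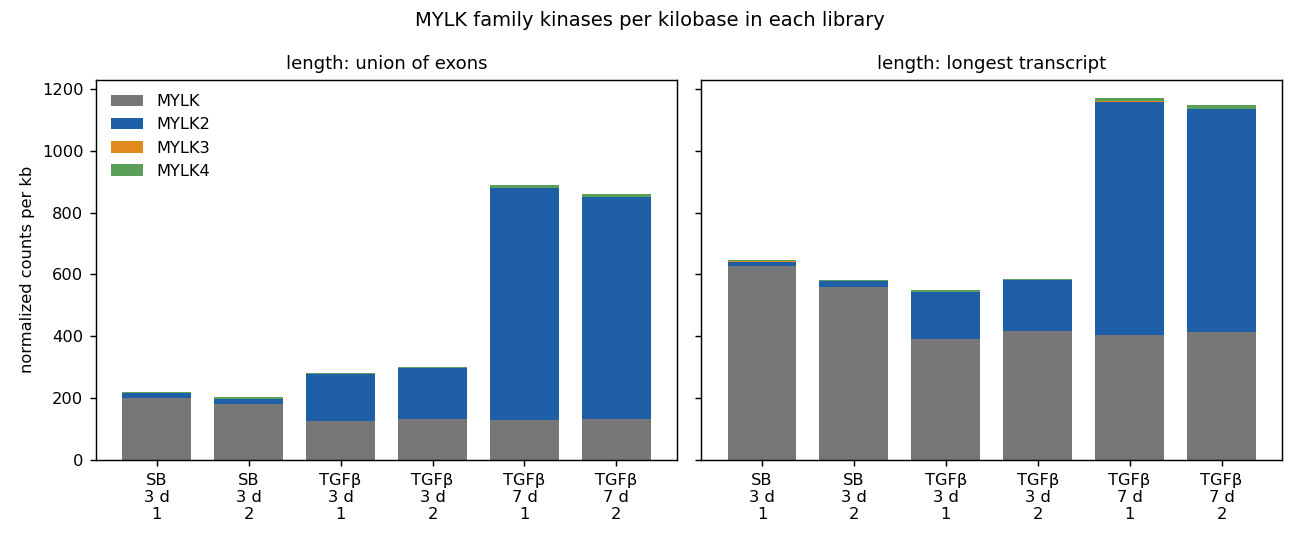
Normalized counts per kb of MYLK, MYLK2, MYLK3 and MYLK4, stacked, in each of the 6 libraries, with the level divided by the union of exons (left) or by the longest transcript (right). MYLK makes up most of each SB bar and MYLK2 most of each 7-day bar in both panels, and MYLK3 is too low to be seen.

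Among the 11389 genes whose mean reached 100, the profile of MYLK2 over the 6 libraries was nearest to those of APCDD1L, COL5A1, UNC5B, DRAXIN and COL6A3, by the Euclidean distance of their centered log2 values. APCDD1L, a relative of the WNT inhibitor APCDD1, was nearest, at a distance of 0.201, with 9 and 10 normalized counts in SB, 108 and 116 at 3 days and 485 and 484 at 7 days. The fibrillar collagen gene COL5A1 was at 0.733, the netrin receptor gene UNC5B at 0.742, the axon guidance gene DRAXIN at 0.843 and the collagen VI gene COL6A3 at 0.88. These distances are over 6 libraries in 3 groups and carry no test.

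MYLK2 is named for skeletal muscle, so the muscle markers were read beside it. Of 15 skeletal muscle markers, 12 had a row in the table, and 7 of these, namely MYOG, MYH1, MYH7, MYH8, TNNT3, TNNI2 and CKM, were at 0 or 1 in every library. ACTA1, the skeletal actin gene, was between 3 and 8. The summed list was 1055 and 1328 in SB, 1330 and 1344 at 3 days and 1591 and 1669 at 7 days, almost all of it from TTN and MYH3. DES (desmin) had 1 and 5 normalized counts in SB, 19 and 19 at 3 days and 30 and 21 at 7 days. The summed cardiac list, of which 6 of 8 genes had a row, lay between 86 and 189 and the summed smooth muscle list, of which 7 of 8 had a row, between 1314 and 2952, most of it from SMTN (smoothelin). The epithelial list summed to between 88277 and 112407, but its members moved apart. KRT8 lay between 33341 and 42692 in all 6 libraries, with the groups overlapping, and KRT18 had 47266 and 50793 normalized counts in SB, 38965 and 41257 at 3 days and 34714 and 31757 at 7 days. EPCAM had 10180 and 9106 in SB, 6610 and 5994 at 3 days and 2988 and 3277 at 7 days, and KRT7 had 5860 and 6183, 15440 and 18905, and 13979 and 11230. EPCAM was thus lower and KRT7 higher in every TGFβ library than in SB. A list of endothelial and blood markers summed to between 4436 and 5179, nearly all of it from CD68. CDH1, the gene of E-cadherin, had 371 and 635 normalized counts in SB and between 9 and 28 under TGFβ. What part these markers may have in the MYLK2 values was not tested. In bulk RNA, fewer cells that express a gene and less RNA per cell cannot be told apart.

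The regulatory light chain MYL9, on which the kinases act, was higher under TGFβ at both times. It had 237 and 208 normalized counts in SB, 382 and 464 at 3 days and 432 and 294 at 7 days. All 4 TGFβ libraries were above the SB libraries, and the 7-day libraries were wide apart and overlapped the 3-day ones. Against SB, MYL9 differed by 0.92 ± 0.19 on the log2 scale after 3 days (adjusted p = 0.00316) and by 0.68 ± 0.19 after 7 (adjusted p = 0.00898). Between 7 and 3 days it was -0.24, with an interval from -0.65 to 0.17. The call at 7 days was lost without the first 7-day library (0.40, adjusted p = 0.135), without the second SB library (0.59, adjusted p = 0.0564) and when genes of low value were kept (adjusted p = 0.0601).

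MYL9 is a minor light chain gene in these cells. Per kb of exon union it made up between 0.95% and 1.74% of the 3 regulatory light chain genes in each library, the rest being MYL12A and MYL12B. MYL12A had 10156 and 8926 normalized counts in SB, 12745 and 11843 at 3 days and 10814 and 11305 at 7 days. Its near copy MYL12B had 9471 and 8188, 11763 and 10990, and 8943 and 9235. Both passed the test at 3 days, with log2 fold changes of 0.37 ± 0.09 (adjusted p = 0.00817 for MYL12A and 0.00902 for MYL12B), and neither passed it at 7 days against SB. MYL12B did not pass at 3 days when genes of low value were kept, and losses of these calls in other alternatives are not listed here. MYL12A and MYL12B share sequence, with 12.2% of the 50-base windows of MYL12A found in another gene, so the split of reads between them is uncertain. These 2 genes belong to the wider list described below and, being under a 2-fold change, were chosen after their values were seen.

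The heavy chains MYH9 and MYH10 showed no called difference. MYH9, the heavy chain of non-muscle myosin IIA, had 51663 and 60415 normalized counts in SB, 54944 and 67832 at 3 days and 55785 and 48241 at 7 days. The 3 groups overlapped. The log2 fold change was 0.13 at 3 days (95% interval from -0.13 to 0.38) and -0.11 at 7 days (from -0.36 to 0.15) against SB. MYH10, the heavy chain of non-muscle myosin IIB, had 3971 and 4973 normalized counts in SB, 4119 and 4284 at 3 days and 3909 and 3847 at 7 days, the last 2 being just below the other 4. Its differences from SB were -0.08 at 3 days (from -0.31 to 0.15) and -0.20 at 7 days (from -0.43 to 0.03), and the latter was called when the first SB library was left out (-0.36, adjusted p = 0.00828). Per kb of exon union, MYH9 made up between 95.7% and 96.6% of MYH9, MYH10 and MYH14 together.

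MYH14, the heavy chain of non-muscle myosin IIC, was the rare heavy chain. It had 64 and 49 normalized counts in SB, 72 and 92 at 3 days and 120 and 113 at 7 days. The groups did not overlap, and MYH14 was called at 7 days against SB (1.04 ± 0.23, adjusted p = 0.00212) and not at 3 days (0.53 ± 0.23, adjusted p = 0.101). The test between 7 and 3 days gave 0.51 ± 0.23 (adjusted p = 0.103), and the value against SB at 7 days was 0.66 after the correction for GC content and length described below.

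ROCK1 and ROCK2 differed in direction, and by little. ROCK1 had 3588 and 3557 normalized counts in SB, 4418 and 4087 at 3 days and 4104 and 4470 at 7 days. ROCK2 had 7841 and 7480 in SB, 7104 and 6428 at 3 days and 5791 and 6405 at 7 days. Both TGFβ groups were above SB in ROCK1 and below SB in ROCK2, with no overlap. ROCK1 was 0.25 ± 0.09 higher on the log2 scale at 3 days (adjusted p = 0.0496) and, at 7 days, 0.26 ± 0.09 higher (adjusted p = 0.0235). The difference at 3 days passed the test in 4 of 16 alternatives and that at 7 days in 12 of 16. ROCK2 was at -0.18 ± 0.09 at 3 days (adjusted p = 0.151) and fell by 0.33 ± 0.09 at 7 days (-0.33, adjusted p = 0.00759). Leaving out the first 7-day library ended that call (-0.26, adjusted p = 0.103). At 7 days the ROCK1 call was lost without the second SB library (0.26, adjusted p = 0.0526), without the second 7-day library (0.20, adjusted p = 0.209) and in a limma fit without the trend (adjusted p = 0.0724). The share of ROCK1 in the pair per kb of exon union went from 28.5% and 29.3% in SB to 35.2% and 35.7% at 3 days and 38.2% and 37.8% at 7 days. Of the 50-base windows of ROCK1, 14.5% occur in other genes, the pseudogene ROCK1P1 among them, and the value of ROCK1 is uncertain to that extent.

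The targeting subunits of myosin phosphatase were read last. PPP1R12A (MYPT1) had 5954 and 5573 normalized counts in SB, 7998 and 7321 at 3 days and 8535 and 9040 at 7 days. Its groups did not overlap and were ordered SB, 3 days, 7 days. PPP1R12A was 0.41 ± 0.09 higher at 3 days (adjusted p = 0.00342) and, at 7 days, 0.61 ± 0.09 higher (adjusted p = 9.02e-05) than in SB on the log2 scale, while the difference between 7 and 3 days did not pass the test (0.20 ± 0.09, adjusted p = 0.0914). PPP1R12B (MYPT2), the relative found mainly in heart and skeletal muscle, had 1160 and 1587 in SB, 1309 and 1285 at 3 days and 1570 and 1721 at 7 days. The SB libraries spanned most of that range, and PPP1R12B was called in none of the comparisons. It was called higher at 7 days against SB without the second SB library (0.50, adjusted p = 0.00406). The difference between 7 and 3 days was 0.34 ± 0.14 (adjusted p = 0.0708) and passed the test when only those 4 libraries were fitted (adjusted p = 0.0145). Genes on the opposite strand, SYT2 among them, overlap 10% of the exon bases of PPP1R12B.

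**Figure D3:**
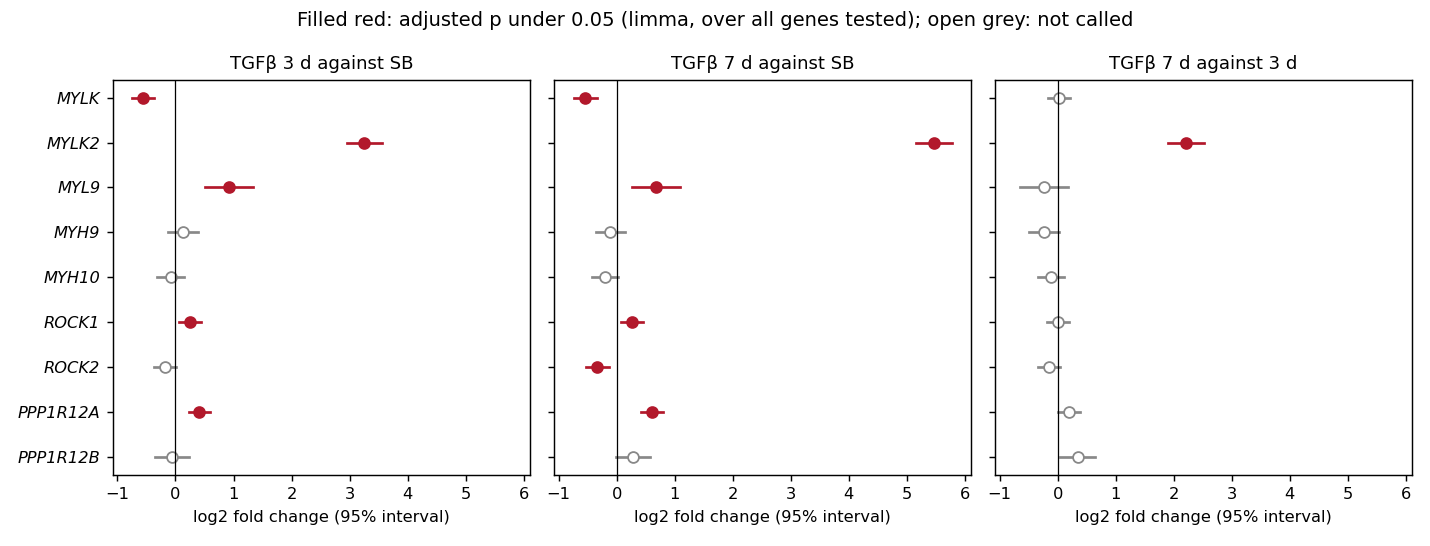
Log2 fold changes of the 9 tested myosin II genes (points) with 95% intervals (lines) for TGFβ 3 days against SB, 7 days against SB and 7 days against 3 days, on a shared x axis, red and filled where the adjusted p was under 0.05. MYLK2 stands alone at the right in all 3 panels, at 3.26, 5.47 and 2.21, and no other gene is called in the last.

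Counted together, 5 of the 9 tested genes were called at 3 days against SB, where 29.0% of all tested genes were called. MYLK2, MYL9, ROCK1 and PPP1R12A were higher, against 14.9% of all genes, and MYLK was lower, against 14.0%. The median log2 fold change of the 9 genes was 0.13, beside -0.02 over all genes. At 7 days against SB, 6 of 9 were called, where 54.5% of all genes were, with the same 4 genes higher (27.7% of all genes) and MYLK and ROCK2 lower (26.9% of all genes). Their median was 0.26, beside 0.00 (-0.001) over all genes. Between 7 and 3 days only MYLK2 was called of the 9, where 33.2% of all genes were called, 17.0% higher and 16.2% lower, and 3 of the 9 had an unadjusted p under 0.05. The share called at 7 days against SB is near the background and is no result about these genes as a group. Both comparisons with SB share the same 2 SB libraries.

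Scaling and GC content bore on these counts. With equal library totals the split at 3 days was 3 higher and 2 lower, ROCK1 having lost its call and ROCK2 (-0.24, adjusted p = 0.0497) gained one. When a trend on GC content and transcript length was removed from each library, a step added after the data were seen, 3 genes were higher and 4 lower at 3 days, and 3 higher and 5 lower at 7 days, against 39.7% and 63.4% of all genes called in either direction under the same correction. By direction, 18.6% of all genes were called higher and 21.0% lower at 3 days, and 27.7% higher and 35.7% lower at 7 days. The correction thus gave more lower than higher calls over all genes too. MYH9 (-0.47, adjusted p = 0.00017), MYH10 (-0.68, adjusted p = 2.12e-05) and PPP1R12B (-0.29, adjusted p = 0.0215) were then called lower at 7 days against SB, MYLK fell further (-1.01), ROCK2 fell further (-0.57) and ROCK1 was at 0.01. Between 7 and 3 days 5 of 9 were called after that correction, MYLK2 and PPP1R12A higher and MYH9, MYH10 and ROCK2 lower. Of all genes 45.7% were called there, 19.0% higher and 26.7% lower, so that count is near the background. The calls of MYLK, MYLK2 and PPP1R12A against SB, and of MYL9 at 3 days, held in all alternatives, as did that of MYLK2 between 7 and 3 days.

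The upstream sequences of the genes were read from RefSeq promoters on GRCh38.p14, a later build than the hg19 of the counts. Of the 10 genes, 8 had an entry (not MYLK2 and MYL9), with 15 starts in all, and the 250 bases before each start were searched on both strands. The SMAD-binding motif CAGAC was found before 5 of the 15 starts, in 5 genes, and before 38% of the starts of all 35116 entries. The CArG box, which is bound by serum response factor and is known from contractile genes, was found before 2 of the 15 starts and before 1.16% of all starts. The 2 starts belong to MYLK and ROCK2. Both genes were called lower at 7 days, ROCK2 not in every alternative, but MYLK2 and MYL9, which were called higher, had no entry to search. A link between the box and the direction of change was not tested. MYLK had a single entry, whose GRCh38.p14 coordinates cannot be set directly against the GRCh37 span of the gene given above. Whether its window lies before a kinase start or the telokin start was not determined, so the box cannot be credited to the kinase. ROCK2 had another start, whose window held CAGAC and no CArG box. The windows with a CArG box are shown 5′ to 3′ on the minus strand, with the box in capitals.
MYLK, chr3:123620549-123620798: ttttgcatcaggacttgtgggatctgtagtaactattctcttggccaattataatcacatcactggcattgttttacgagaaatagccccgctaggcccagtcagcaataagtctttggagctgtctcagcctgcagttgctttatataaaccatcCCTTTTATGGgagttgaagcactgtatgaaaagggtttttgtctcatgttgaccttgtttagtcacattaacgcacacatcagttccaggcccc
ROCK2, chr2:11345438-11345687: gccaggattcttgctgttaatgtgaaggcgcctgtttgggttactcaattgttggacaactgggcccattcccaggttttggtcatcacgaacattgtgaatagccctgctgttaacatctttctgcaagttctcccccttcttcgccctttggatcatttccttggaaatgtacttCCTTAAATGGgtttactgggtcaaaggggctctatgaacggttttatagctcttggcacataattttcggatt
Neither of the windows shown held CAGAC, so the motifs did not overlap there. These are matches of letters in a window, and binding was not measured.

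The rest of the pathway was read through a list of 47 further genes, of which 46 had a row and 44 were tested. At 3 days against SB 13 were higher and 9 lower, at 7 days against SB 11 were higher and 11 lower, and between 7 and 3 days 5 were higher and 6 lower. All genes were called at 29.0%, 54.5% and 33.2% in these comparisons, and the 22 of 44 at 7 days against SB and the 11 of 44 between 7 and 3 days are not above that background. Their medians were 0.10, 0.08 and 0.02 on the log2 scale. With the first 3-day library left out the 22 called at 3 days became 14, and the 11 called between 7 and 3 days became 7 without the first and 6 without the second 7-day library. Some roles were mixed in direction, as in the pair of LIM kinases that phosphorylate cofilin downstream of ROCK. LIMK1 had 2762 and 3004 normalized counts in SB, 4144 and 5512 at 3 days and 6743 and 5762 at 7 days, with log2 fold changes of 0.73 ± 0.13 (adjusted p = 0.00114) and 1.11 ± 0.13 (adjusted p = 2.07e-05) against SB. LIMK2 had 636 and 651, 480 and 466, and 410 and 404, and was called lower at both times (-0.44 and -0.66, adjusted p = 0.0144 and 0.000544).

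CALD1 encodes caldesmon, which binds actin and calmodulin and holds back the myosin motor. It had 1162 and 1198 normalized counts in SB, 2252 and 2154 at 3 days and 3426 and 3653 at 7 days. No groups overlapped, and CALD1 rose over SB by 0.90 ± 0.09 after 3 days (adjusted p = 1.54e-05) and by 1.58 ± 0.09 after 7 (adjusted p = 5.73e-08). SVIL, the gene of supervillin, which binds actin and myosin II, had 5205 and 7083 in SB, 3386 and 3642 at 3 days and 3387 and 3289 at 7 days, and was called lower at both times (-0.79 and -0.86, adjusted p = 0.000516 and 0.000116). DAPK2, a calmodulin-dependent kinase that also acts on the light chain, had 44 and 88 in SB, 26 and 23 at 3 days and 39 and 44 at 7 days. It was called lower at 3 days (-1.31 ± 0.33, adjusted p = 0.0104), but not when the second SB library was left out (-0.82, adjusted p = 0.0696) or when genes of low value were kept (adjusted p = 0.0724).

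Among the other kinases that phosphorylate the light chain, the CDC42-binding kinases CDC42BPA and CDC42BPB and the kinase STK17A were called higher at both times. CDC42BPA had 4766 and 5422 normalized counts in SB, 6640 and 6427 at 3 days and 8237 and 8457 at 7 days (0.36 ± 0.09 and 0.72 ± 0.09 against SB, adjusted p = 0.00835 and 3.11e-05). Citron kinase, CIT, which acts in cytokinesis, was called lower at 7 days (-0.27 ± 0.09, adjusted p = 0.0228). That call, and the call of STK17A at 3 days, were lost when genes of low value were kept. Of the 6 tested genes on the phosphatase side, 3 were called lower at 7 days against SB, where 26.9% of all genes were, namely MPRIP (-0.33, adjusted p = 0.00543), which tethers the phosphatase to actin, and the inhibitor genes PPP1R14B (-0.40, adjusted p = 0.0351) and PPP1R14C (-0.71, adjusted p = 0.0052). The other 3 were not called, and the call of PPP1R14B was lost when genes of low value were kept. For the calls of CIT, STK17A and PPP1R14B against SB, losses in other alternatives are not listed here. In limma without the trend, 5 genes of the wider list were called higher and 6 lower at 3 days, beside 13 and 9 in the main fit. Apart from LIMK1, CALD1, DAPK2, MYLK4 and MYH14, which were named for a change of at least 2-fold, the genes of the wider list were chosen for mention after their values were seen.

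**Figure D4:**
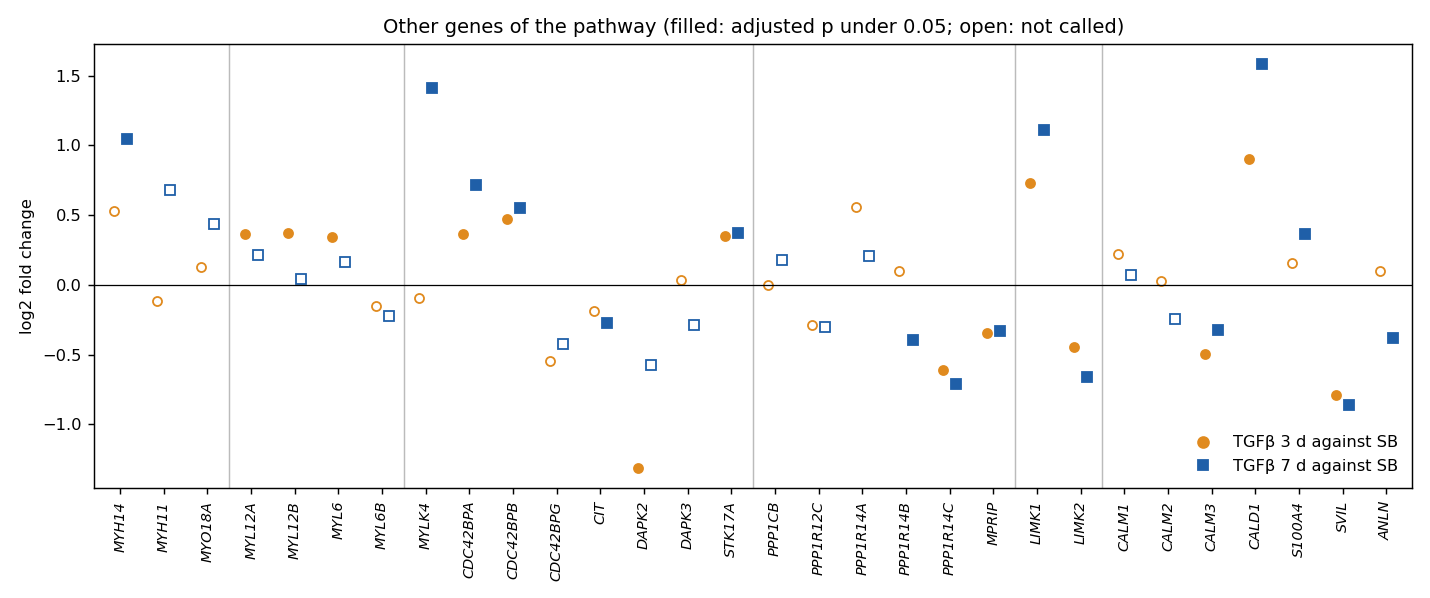
Log2 fold changes against SB of tested further genes of the pathway, in the order heavy chains, light chains, light chain kinases, phosphatase, LIM kinases, and calmodulin and binding proteins, divided by grey lines, with circles for TGFβ 3 days, squares for TGFβ 7 days, and filled marks where the adjusted p was under 0.05. CALD1 is the highest point, at 1.58 at 7 days, DAPK2 the lowest, at -1.31 at 3 days, and both directions occur within the light chain kinases and within the LIM kinases.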

How the data were processed

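H2087-LCC cells were profiled by polyA RNA-seq in 3 groups of 2 libraries. Per the methods and the submitters' processing notes, the authors checked reads with FastQC 0.11.5, mapped read pairs to hg19 with STAR, counted unique reads on genes with HTSeq 0.6.1p1 and normalized by library size with DESeq2 3.4. The annotation release is not given in the sources used here. The deposited values, a score (normalized counts as whole numbers), were rounded after scaling, so exact read counts were not recovered and no count model was fitted. Values were tested as log2(value + 1) with limma 3.58.1 in R 4.3.3 (empirical Bayes with trend, group as the only term, all 6 libraries, 3 residual degrees of freedom), over 14395 genes with a mean of at least 10, two-sided, Benjamini-Hochberg at 0.05. The test was checked on simulated data only for calling large changes in libraries drawn independently. That check does not bear on small changes or on deviations shared between libraries. Intervals are 95% and, with the estimated depths, cover the spread of libraries or counting error only.

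The 10 genes and all lists were chosen with earlier results of these data known. All 10 were named, as were further pathway genes called with an absolute log2 fold change of at least 1, and the 5 profiles nearest to any of the 10 that reached that size. Same-numbered libraries did not deviate together across genes (correlations of 0.208, -0.13 and -0.647), so the numbers were not taken to pair all groups, though opposite-numbered 3-day and 7-day libraries did deviate together. Alternatives were a pseudocount of 0.5 or 5, no filter or a mean of at least 50, other scalings (median-of-ratios size factors, equal totals, upper quartile), no trend, only the 4 libraries compared, a replicate block, each library left out and other gene lengths. A crossed block, the correction for GC content and length (loess, span 0.5, 13021 genes) and the canonical transcript length were added after the data were seen. Gene models came from GENCODE on GRCh37, drawings from matplotlib 3.10.9. A group of upstream regulators in the pathway list was counted with it but is not reported here by gene.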

Additional observations from a re-analysis of the deposited data

Results flagged for a closer look

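The 10 genes and the further pathway genes given with values were compared between 7 and 3 days of TGFβ by the limma test. MYLK2 (2.21 on the log2 scale), MYLK4 (1.51), CALD1 (0.68), LIMK1 (0.38) and CDC42BPA (0.35) were called higher at 7 days. MYL12B (-0.32) and PPP1R14B (-0.50) were called lower. The same SB libraries stand behind both times, so this test is also that of the difference between the differences from SB. With no SB library at 7 days, TGFβ and the longer culture cannot be told apart in it. In MYLK2, CALD1, LIMK1 and CDC42BPA both 7-day libraries were above both 3-day libraries and both of these above SB. The LIMK1 difference held in 10 of 16 alternatives and was lost when the first 3-day library (0.18), the first 7-day library (0.27) or the second 7-day library (0.50) was left out. That of CDC42BPA was lost without the second 3-day library or either 7-day library, that of MYL12B without the first 3-day library or either 7-day library, and that of PPP1R14B without the second library of either group. All 3 were also lost in limma without the trend, and MYL12B and PPP1R14B without the filter on low values. That of MYLK4 held in all 15 alternatives and those of MYLK2 and CALD1 in all 16.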

How the results depend on the processing

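The number of the 9 genes called between 7 and 3 days was 1, and became 2 with only the 4 libraries compared and with the replicate block (PPP1R12B gained), 3 with the crossed block and 5 with the GC and length correction. The block took the call of ROCK1 at 3 days (adjusted p = 0.095) and, apart from this loss and the gain of PPP1R12B, changed no call of these genes. The crossed block, which also raised the count at 3 days against SB from 5 to 6 (4 higher, 2 lower), rests on the opposite deviations of the 3-day and 7-day libraries and was added after the data were seen. Without either SB library the count between 7 and 3 days was 2. The further pathway genes called at 3 days against SB went from 22 to 13 without the filter on low values, to 11 without the trend, and to between 14 and 22 with a library of the groups compared left out. Between 7 and 3 days they went from 11 to 21 with the GC and length correction to between 6 and 10 with a library of these groups left out, and to 16 without either SB library. Small differences turned direction. For ROCK1 between 7 and 3 days the value was -0.00498 with median-of-ratios size factors, -0.0996 with the GC and length correction and between -0.0502 and 0.073 with a library left out. With the GC and length correction MYLK was at -0.201 between 7 and 3 days and PPP1R12B at -0.293 at 7 days against SB. With a library left out, the ranges at 3 days against SB were -0.243 to 0.0811 for MYH10, -0.291 to 0.161 for PPP1R12B, -0.0241 to 0.28 for MYH9 and -0.377 to 0.185 for MYLK4, that at 7 days against SB was -0.22 to 0.00594 for MYH9, and those between 7 and 3 days were -0.0283 to 0.0666 for MYLK and -0.517 to 0.0371 for MYL9. The cause was not tested. Of 666 values of single genes under an alternative, 604 kept their direction and side of the threshold. Where a library is left out, the lone sample of its group is assumed to vary like the others.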
